A study of Homo sapiens with 6 samples.

Results

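The genes described here encode tight junction scaffold and polarity proteins, and were compared between MDA-MB231 breast cancer cells with a stable knockdown of G9a and parental control cells. The set was fixed by name as 9 genes: OCLN, TJP1, TJP3, CGN, F11R, MARVELD2, MARVELD3, CRB3 and PATJ. A member was measured where the platform's annotation gave a probe set that gene alone, and of several such probe sets the one with the highest mean was used. In this way 7 of the 9 were measured, among 18417 genes in all. OCLN shares its probe set with the pseudogene OCLNP1 and was not tested by name, and F11R is in none of the probe sets that the annotation lists. No filter on low values was applied, so each of the 7 entered the test.

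The G9a knockdown group had 3 arrays of 1 stably knocked-down clone, and the control group had 3 arrays of untreated parental cells. Both were grown in DMEM/F12 with serum and harvested in log-phase growth. MDA-MB231 is a widely used cell line derived from metastatic breast cancer, and the labels call the clone less metastatic. Because the knockdown is a single clone and the control is the parental line, an effect of G9a and a property of the clone cannot be told apart. The labels do not say that replicates came from separate cultures, so the p-values reflect only how far these arrays differed, a spread that may be technical.

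Tight junctions seal the space between neighbouring epithelial cells near their apical side. The claudins form the strands together with membrane proteins of a MARVEL fold (occludin, tricellulin and MARVELD3), and the JAM adhesion molecules associate with the junction. The cytoplasmic ZO proteins and cingulin tie these membrane proteins to actin and myosin. The Crumbs complex, in which CRB3 binds PALS1 and PALS1 binds PATJ, marks the apical membrane and acts with the PAR complex of PARD3, PARD6 and atypical protein kinase C to position the junction. Snail and ZEB family repressors bind E-box sequences in the promoters of several epithelial junction genes, CRB3 and PATJ among the reported targets. G9a, the product of EHMT2, is a histone H3 lysine methyltransferase that has been reported as a partner of Snail at the E-cadherin promoter.

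The promoters of CRB3 and PATJ are shown because each is the only promoter listed for its gene and held 3 or more copies of this E-box; no single promoter of another member held more than 2. The sequences are those of RefSeq on GRCh38.p14, from 250 bases before to 50 after the annotated start, printed 5′ to 3′ in the direction of the gene. Capitals mark CACCTG, the E-box bound by Snail and ZEB proteins, on either strand (CAGGTG where it lies on the other strand); the copies do not overlap each other. CRB3 is at chr19:6464021-6464320 on the plus strand and PATJ at chr1:61742230-61742529 on the plus strand.
CRB3: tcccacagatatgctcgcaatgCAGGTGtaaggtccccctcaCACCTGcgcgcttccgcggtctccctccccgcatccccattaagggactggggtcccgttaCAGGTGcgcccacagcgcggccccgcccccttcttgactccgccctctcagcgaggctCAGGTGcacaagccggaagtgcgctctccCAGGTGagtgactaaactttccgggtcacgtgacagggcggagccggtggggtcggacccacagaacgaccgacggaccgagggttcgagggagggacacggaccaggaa
PATJ: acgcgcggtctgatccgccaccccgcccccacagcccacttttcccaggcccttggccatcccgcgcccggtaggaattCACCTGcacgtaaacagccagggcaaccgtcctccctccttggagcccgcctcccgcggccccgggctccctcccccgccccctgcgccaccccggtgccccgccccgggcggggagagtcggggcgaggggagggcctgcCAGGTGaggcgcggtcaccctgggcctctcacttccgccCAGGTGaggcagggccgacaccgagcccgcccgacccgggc

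CRB3 held 5 copies, which began 228, 208, 147, 89 and 60 bases before the start. PATJ held 3 copies, which began 171 and 30 bases before the start and 9 bases after it. Of 35116 promoters in the table, 20.6% held at least 1 copy, 0.635% at least 3 and 0.094% at least 5. Among the other members, 1 of 4 promoters of TJP1, 1 of 2 of TJP3 and both promoters of OCLN, with 3 copies between them, held the sequence, whereas the promoters of CGN and MARVELD2 did not. MARVELD3 and F11R are not in the promoter table. A match is a description of the letters in this window and not evidence that a factor was bound there in these cells.

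None of the 7 measured members passed the test between G9a knockdown and control cells. The test was limma on the deposited log2 intensities, two-sided, with a threshold of 0.05 on Benjamini-Hochberg adjusted p-values, computed across the 18417 genes. Of all genes, 1.28% passed as higher and 1.78% as lower in the knockdown (3.05% in either direction), so a count of 0 of 7 is close to this background. At an unadjusted p under 0.05 the count was also 0 of 7, where 19.4% of all genes passed, and it was 0 after adjustment with a variance trend or with array weights. The differences, knockdown minus control, ran from -0.10 to 0.11 on the log2 scale, 5 positive and 2 negative, with a median of 0.03 against 0.03 for all genes. Levels of bulk RNA were compared, so fewer cells expressing a gene and less RNA per cell cannot be told apart.

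EHMT2 itself checks the labels. It read 9.66, 9.59 and 9.51 log2 units on the G9a knockdown arrays, against 10.21, 10.27 and 9.93 on the control arrays. Every knockdown array lay below every control array, and the gene fell by 0.55 ± 0.10 (SE; limma, adjusted p = 0.0259), a level 0.681 of the control. With 1 array left out it missed the threshold in 5 of the 6 fits, with adjusted p up to 0.122, and it also missed it with every probe set tested (adjusted p = 0.0957).

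**Figure D1:**
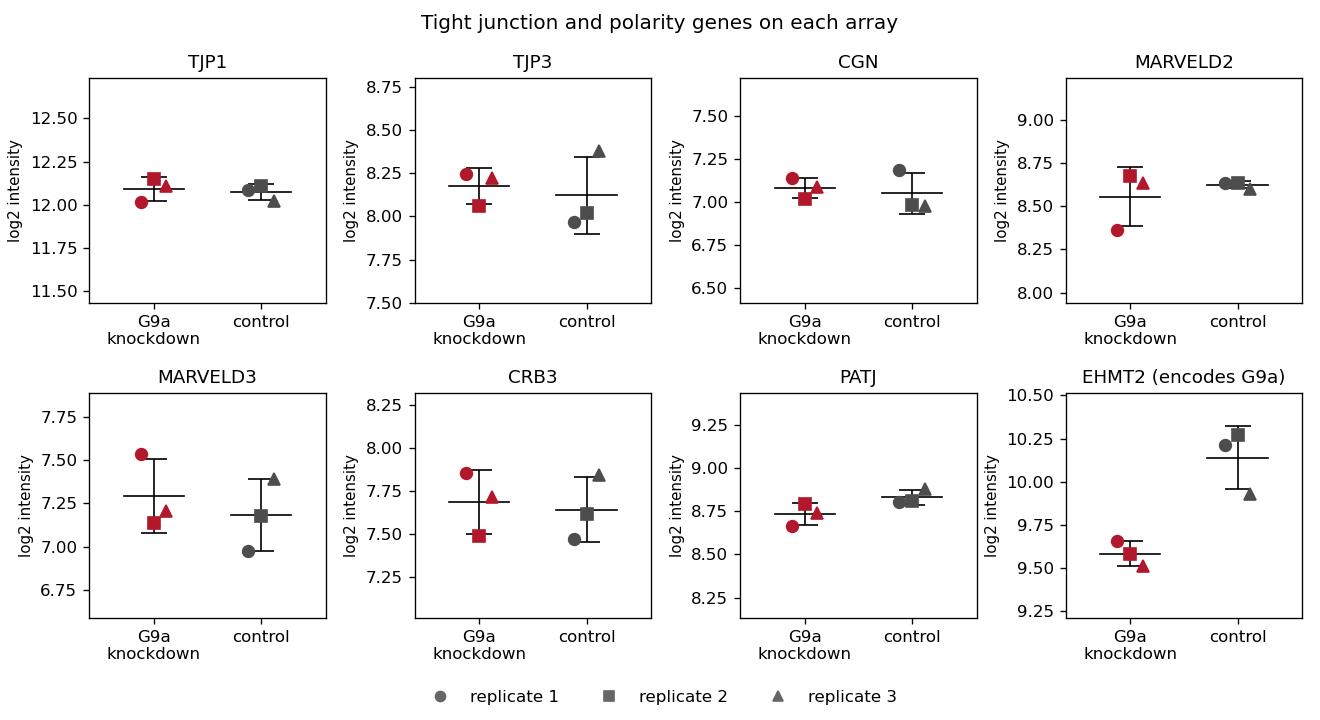
Log2 intensity of the 7 measured members and of EHMT2 on each array, with G9a knockdown left of control; symbols mark the replicate, horizontal bars the group mean and whiskers the SD (n = 3). All panels span the same range of log2 units. The groups separate for EHMT2 and, narrowly, for PATJ, and overlap in the other 6 panels.

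The ZO scaffold genes did not pass. TJP1 encodes ZO-1, the scaffold that joins claudins and occludin to actin. It read 12.01, 12.15 and 12.11 in knockdown cells and 12.09, 12.11 and 12.02 in control cells. Its groups overlapped almost completely, with means of 12.09 ± 0.07 and 12.07 ± 0.05 (SD, n = 3 each). The difference was 0.02 ± 0.06 (SE; limma, adjusted p = 0.896), with a 95% confidence interval from -0.13 to 0.17.

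TJP3 encodes ZO-3, the related scaffold found mainly in epithelia. It read 8.24, 8.06 and 8.22 in knockdown cells and 7.97, 8.02 and 8.38 in control cells. Control replicate 3 was the highest of the 6 arrays and the other control arrays were the lowest. The difference was 0.05 ± 0.11 (SE; limma, adjusted p = 0.835), with an interval from -0.20 to 0.31. It was 0.18 without control replicate 3 (adjusted p = 0.224) and -0.02 without control replicate 1.

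CGN encodes cingulin, which binds ZO-1 and myosin on the cytoplasmic face of the junction. It read 7.14, 7.02 and 7.09 in knockdown cells and 7.19, 6.98 and 6.98 in control cells. The knockdown values lay within the range of the control values. The difference was 0.03 ± 0.08 (SE; limma, adjusted p = 0.855), with an interval from -0.14 to 0.21, and it was 0.10 without control replicate 1. CGN and MARVELD3, at the 26.0 and 28.7 percentiles, were the 2 members in the bottom tertile of genes by mean signal. CRB3 and TJP3 lay at the 35.6 and 43.1 percentiles, MARVELD2 and PATJ at 49.9 and 53.0, and TJP1 at 95.5. No detection call was used for these arrays. A low signal, that of CRB3 and TJP3 included, was therefore not separated from background.

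The 2 measured MARVEL genes differed in sign, and neither passed. MARVELD2 encodes tricellulin, which sits where 3 cells meet. It read 8.36, 8.67 and 8.63 in knockdown cells and 8.63, 8.63 and 8.60 in control cells. Knockdown replicate 1 alone was low, while the other 5 arrays lay between 8.60 and 8.67. The difference was -0.07 ± 0.09 (SE; limma, adjusted p = 0.715), with an interval from -0.27 to 0.13, and without knockdown replicate 1 it was 0.03. MARVELD2 had 2 single-gene probe sets with identical values on the 6 arrays, which count as 1 measurement. In RefSeq gene order it lies next to OCLN on chromosome 5, with 0 protein-coding genes between them.

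MARVELD3, which encodes the remaining MARVEL protein of the junction, read 7.53, 7.13 and 7.20 in knockdown cells and 6.98, 7.18 and 7.39 in control cells. Knockdown replicate 1 was the highest array and control replicate 1 the lowest. Its difference had the largest absolute value of the 7 members, 0.11 ± 0.13 (SE; limma, adjusted p = 0.696), and the widest interval, from -0.19 to 0.41. It was -0.01 without knockdown replicate 1, 0.0065 without control replicate 1 and 0.21 without control replicate 3.

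The Crumbs complex genes did not pass either. CRB3 encodes the epithelial Crumbs protein, a short transmembrane protein of the apical surface. It read 7.85, 7.49 and 7.72 in knockdown cells and 7.47, 7.62 and 7.84 in control cells, and both groups covered the same range. The difference was 0.04 ± 0.12 (SE; limma, adjusted p = 0.874), with an interval from -0.23 to 0.32. It was -0.04 without knockdown replicate 1 or without control replicate 1, and 0.14 without control replicate 3 or without knockdown replicate 2. The difference for CRB3 was smaller than the spread between arrays. Whether any factor bound the E-box copies printed above was not measured.

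PATJ encodes a scaffold with many PDZ domains that PALS1 recruits to CRB3. It read 8.67, 8.79 and 8.74 in knockdown cells and 8.80, 8.81 and 8.88 in control cells. Every knockdown array lay below every control array, although knockdown replicate 2 and control replicate 1 were 8.79 and 8.80. The difference was -0.10 ± 0.06 (SE; limma, adjusted p = 0.435), with an interval from -0.24 to 0.05. PATJ was 1 of the 7 members (14.3%) whose groups did not overlap with the knockdown lower, a share near the 12.7% of all genes, and no member was higher without overlap, against 14.3% of all genes. It was also the member whose difference kept its sign with each array left out in turn, from -0.13 to -0.06, and it did not pass in any of these fits.

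**Figure D2:**
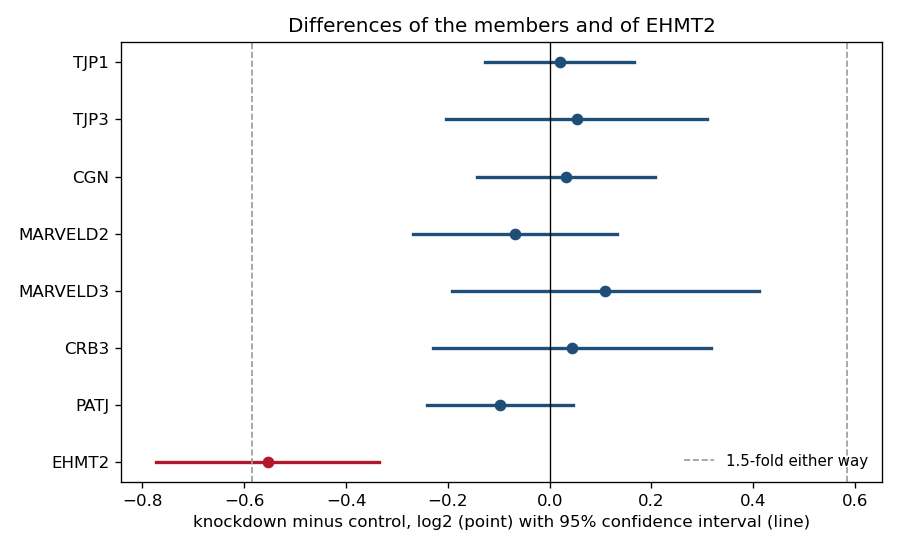
Difference in log2 intensity, knockdown minus control, of the 7 members and EHMT2 (points) with the 95% confidence interval from limma (lines; 3 arrays per group). The 7 members' intervals include 0 and lie inside the dashed lines at 1.5-fold, while the interval of EHMT2 runs from -0.77 to -0.33.

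The intervals bound the difference only as far as the spread between these arrays measures its error. That spread may be technical, and with 1 clone it does not include variation between clones. Expressed as fold, the intervals reached at most 1.33-fold higher in the knockdown, for MARVELD3, and at most 1.20-fold lower, for MARVELD2. For TJP1 the bounds were 1.12-fold higher and 1.09-fold lower. All 7 intervals lay inside 1.5-fold in either direction, as did those of 95.9% of all genes, so this narrow range was not particular to the members. The intervals are those of single genes, not widened for the number of genes, and the values that missed the threshold do not show that the levels were equal.

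The variation within groups had a common form in 3 members, seen after their values were known. TJP3, MARVELD3 and CRB3 ranked the arrays alike: in the knockdown, replicate 1 was highest and replicate 2 lowest, and in the control, replicate 3 was highest and replicate 1 lowest. The deviations from the group mean were 0.07, 0.24 and 0.17 for TJP3, MARVELD3 and CRB3 on knockdown replicate 1. On knockdown replicate 2 they were -0.12, -0.16 and -0.20. This order was read from these same members, so its count of 3 of the 7 was fixed in advance. Of all genes, 9.54% had it.

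On control replicate 3 the same deviations were 0.25, 0.21 and 0.20, and on control replicate 1 they were -0.15, -0.21 and -0.17. The lower quartile of all genes followed the same order over the arrays, at 7.08, 6.96 and 7.02 log2 units on knockdown replicates 1, 2 and 3 and 6.94, 6.96 and 7.01 on control replicates 1, 2 and 3. Of genes in the bottom, middle and top tertiles of mean signal, 13.6%, 12.6% and 2.51% had the order. MARVELD3 lay in the bottom tertile and TJP3 and CRB3 in the middle one. After quantile normalization MARVELD3 and CRB3 kept it and TJP3 did not, and 4.81%, 10.6% and 5.57% of genes in the 3 tertiles had it. The part of the array distribution in these members' spread was not tested beyond that.

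TJP1, MARVELD2 and PATJ were instead lowest on replicate 1 of the knockdown arrays, where their deviations were -0.08, -0.19 and -0.07. Of the knockdown arrays they were highest on replicate 2, at 0.06, 0.12 and 0.06. Knockdown replicate 1 and control replicate 3 had the lowest array weights in limma, 0.413 and 0.273, against 0.873 to 4.83 on the other arrays. With both left out together, a setting chosen after the data were seen, the count of members past the threshold was again 0.

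**Figure D3:**
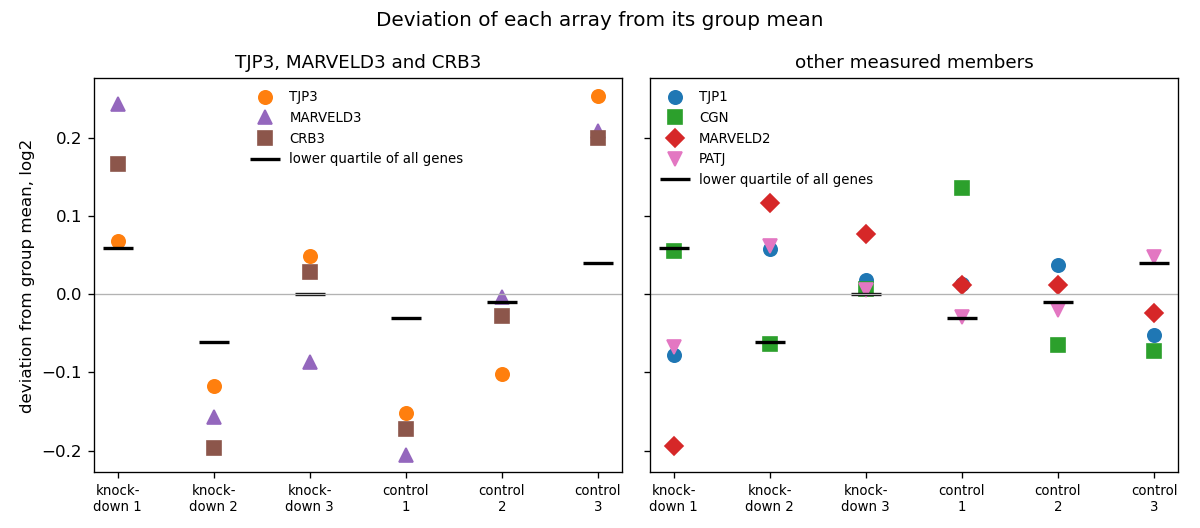
Deviation of each member's log2 intensity from its group mean on each array, with knockdown arrays left of control arrays; black bars give the same deviation for the lower quartile of all genes. TJP3, MARVELD3 and CRB3 (left) reach 0.24 on knockdown replicate 1 and 0.25 on control replicate 3, where the lower quartile is also highest, and the other members (right) do not share this order.

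MARVELD3 was used to look for genes of similar profile, as the member with the largest absolute difference. The 3 nearest genes, by Euclidean distance between profiles over the 6 arrays after each gene's own mean was subtracted, were LINC02912 (distance 0.0531), CD70 (0.0896) and STOML3 (0.0990). Their differences were 0.07, 0.10 and 0.08, with adjusted p from 0.710 to 0.797 (limma). None of these genes passed, and their mean signals were low, at the 15.7, 21.2 and 9.7 percentiles. Whether the likeness lies in how the replicates varied or in the group difference was not tested.

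The members' chromosomal neighbours were level. For each member the 10 nearest tested genes on either side in RefSeq order had a median difference between -0.05, around MARVELD2, and 0.08, around CGN. The median of all genes was 0.03.

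Other genes of the same junctions were described from 3 further lists. The first held 22 other tight junction genes, of which 17 were measured singly. None passed as higher and 1 as lower, against 1.28% and 1.78% of all genes. The other 16 did not pass, and the median was 0.03. The gene that fell was USP53, encoding a protein of the ubiquitin-specific protease family that binds ZO-1 in mouse. It read 10.35, 10.56 and 10.52 in knockdown cells, against 10.83, 10.78 and 10.94 in control cells. The groups did not overlap, and the difference was -0.37 ± 0.08 (SE; limma, adjusted p = 0.0435). The call was lost with any 1 array left out (adjusted p from 0.0752 to 0.136), with every probe set tested (0.127), and with knockdown replicate 1 and control replicate 3 left out together (0.0790). At an unadjusted p under 0.05 the list had 6 of its 17 genes, against 19.4% of all genes. The list had no common direction, with 9 positive and 8 negative differences. Without overlap 3 of its genes were higher and 2 lower, against 14.3% and 12.7% of all genes.

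The polarity list held 22 genes of the Crumbs, PAR and Scribble complexes and their regulators, all measured. None passed, against 3.05% of all genes, and the median was -0.01. An unadjusted p under 0.05 was found for 4 of the 22, or about the share of all genes (19.4%). PARD6B, the adaptor that brings atypical protein kinase C to CDC42, had the largest absolute difference. It read 10.23, 10.19 and 10.17 in knockdown cells, against 10.50, 10.39 and 10.53 in control cells, a difference of -0.28 ± 0.06 (SE; limma, adjusted p = 0.0587). The groups did not overlap, and PARD6B passed with a variance trend (adjusted p = 0.0237), with array weights (0.0169) and without the bottom tertile of genes (0.0296). It did not pass with every probe set tested (0.143) or in any fit without 1 array (0.0881 to 0.199).

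PARD3, the scaffold of the PAR complex, followed. It read 10.34, 10.41 and 10.36 in knockdown cells, against 10.59, 10.63 and 10.55 in control cells. The difference was -0.22 ± 0.06 (SE; limma, adjusted p = 0.0862), the groups did not overlap, and it too passed with array weights (0.0074), with a variance trend (0.0414) and without the bottom tertile (0.0428). It did not pass with every probe set tested (0.179) or in any fit without 1 array (0.0800 to 0.275). PALS1, the link between CRB3 and PATJ, and PARD3B were named after their values were seen. Their differences were -0.20 and -0.15, with adjusted p of 0.168 and 0.224 (limma). These 4 genes had knockdown arrays below the control arrays without overlap, 18.2% of the list against 12.7% of all genes. In the other direction 1 of the 22, MARK2 (0.11), was higher without overlap, against 14.3% of all genes.

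The third list held 14 transcription and splicing regulators known to act on epithelial junction genes, of which 13 were measured. There were 2 that passed as higher, against 1.28% of all genes, and none as lower, against 1.78%. The other 11 did not pass, and the median was 0.01. An unadjusted p under 0.05 was found for 5 of the 13, against 19.4% of all genes. ESRP2, an epithelial splicing regulator, read 8.66, 8.76 and 8.67 in knockdown cells, against 8.34, 8.40 and 8.45 in control cells. It rose by 0.30 ± 0.06 (SE; limma, adjusted p = 0.0453), with no overlap.

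ELF3, an epithelial ETS factor, read 7.95, 8.10 and 7.89 in knockdown cells, against 7.52, 7.57 and 7.72 in control cells. It rose by 0.38 ± 0.08 (SE; limma, adjusted p = 0.0498), with no overlap. Both calls were lost in 5 of the 6 fits without 1 array, with adjusted p up to 0.149 for ESRP2 and 0.145 for ELF3, and held without control replicate 3. Both were also lost with every probe set tested (adjusted p = 0.122 for ESRP2 and 0.138 for ELF3) and with knockdown replicate 1 and control replicate 3 left out together (0.0644 and 0.0731). Quantile normalization (adjusted p = 0.0642) and median centring (0.0520) ended the call of ELF3 as well. The Snail and ZEB repressors did not pass: ZEB1 was at -0.21, SNAI2 at 0.27, SNAI1 at -0.11 and ZEB2 at -0.07, with adjusted p from 0.128 to 0.554 (limma). The groups did not overlap for ZEB1 and ZEB2, lower in the knockdown, or for SNAI2, higher, and overlapped for SNAI1. Of all genes, 12.7% were lower and 14.3% higher without overlap. TWIST1, on the same list, was at 0.01 (limma, adjusted p = 0.956).

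**Figure D4:**
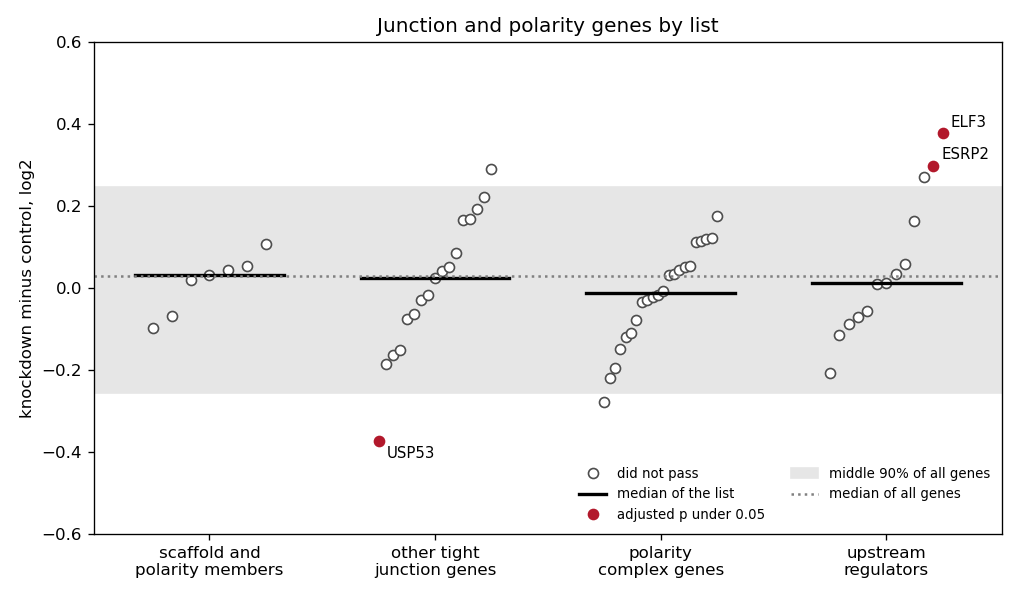
Difference in log2 intensity, knockdown minus control, of each measured gene in the member set and the 3 further lists; filled points passed the test at an adjusted p of 0.05, open points did not, and black bars are list medians. The grey band holds the middle 90% of all genes and the dotted line their median, 0.03; no member passed, and USP53, ESRP2 and ELF3 are the genes that did.

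Line markers were checked once against the labels. VIM, CD44, EGFR and CAV1, which mark this mesenchymal-like line, lay at or above the 91.9th percentile of mean signal, and none passed. The epithelial keratin genes KRT8, KRT18 and KRT19 were as high, at the 98.9, 96.5 and 93.4 percentiles. KRT19 was at -0.38 without passing (limma, adjusted p = 0.0800). EPCAM and CDH1, the other epithelial markers, were lower in level, at the 54.2 and 31.0 percentiles. Of the other marker sets, 1 of 5 epithelial genes passed as higher (CDH1, 0.45, limma adjusted p = 0.0177), as did 1 of 5 endothelial genes (CDH5). These calls were not examined under the alternative settings. None of the luminal, leukocyte or fibroblast genes passed, and the share of all genes passing as higher was 1.28%. The mean level of the 5 endothelial markers was 7.51 to 7.65 on the knockdown arrays, against 7.19 to 7.44 on the control arrays. CDH5 (0.71, limma adjusted p = 0.0210) and PECAM1 (0.42, limma adjusted p = 0.0591, not passing) had the largest differences among them. CLDN5 was at 0.19, VWF at 0.07 and TEK at -0.00095. The mean of the 4 measured leukocyte markers was also higher without overlap, at 6.12 to 6.17 against 5.99 to 6.08. PTPRC was at 0.21, CD3E at 0.14, LYZ at 0.09 and CD14 at 0.03. Among all genes taken singly, 14.3% were higher and 12.7% lower without overlap. The leukocyte genes lay between the 4.41 and 36.1 percentiles of mean signal. The mean of the 4 line markers was lower, at 13.03 to 13.07 against 13.10 on each control array. Among these, EGFR was at -0.21, CD44 at -0.05, VIM at -0.04 and CAV1 at 0.11. The part of these markers in the values above was not tested.

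The count of members past the threshold was 0 under each setting tried. Over 15 alternatives, 103 member values were computed, and the smallest adjusted p was 0.143 (limma with array weights), for TJP3. The signs were less stable: with 1 array left out, TJP1, TJP3, CGN, MARVELD2, MARVELD3 and CRB3 each changed sign in at least 1 fit.

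**Figure D5:**
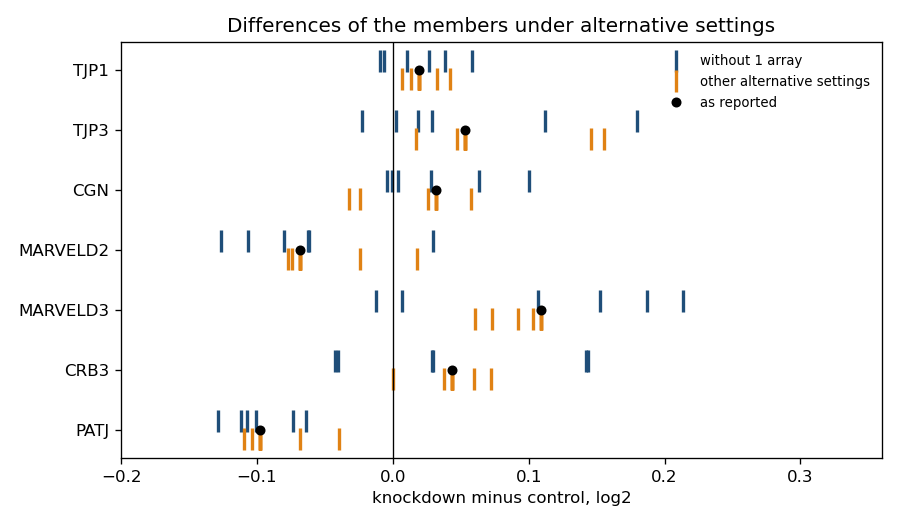
Difference in log2 intensity, knockdown minus control, of each member as reported (black points), in the 6 fits that leave out 1 array (blue ticks) and under the other alternative settings (orange ticks). Ticks fall on both sides of 0 for each member except PATJ, and the highest tick is 0.21, for MARVELD3.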

How the data were processed

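Biotin-labelled total RNA was measured on single-colour expression arrays, per the labels' protocols. The deposited log2 intensity values, 1 per probe set and array, were made by the authors and had close but not identical quartiles on the 6 arrays; how they were summarised is not given in the sources used here, and the log base was taken from the range of the values. Of 33297 probe sets, 19460 carried 1 gene symbol, 1754 several, and 12083 were not listed. Symbols were updated by Entrez number against RefSeq (GRCh38.p14), which held 19429 of the 19460, giving 18417 genes. Each gene was fitted with limma 3.58.1 in R 4.3.3 (lmFit, eBayes without trend), knockdown minus control, with 4 residual degrees of freedom. Only the limma fit was tested on simulated arrays, with normal noise and planted changes larger than any member's difference. The other steps were not tested in this way.

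The members and lists were chosen with earlier results of these data known. Named were the 7 measured members, EHMT2, up to 4 passing genes per list (otherwise the 2 with the largest difference), and the 3 nearest profiles of the member with the largest difference. The lists described, and did not test, groups of genes. Replicate numbers were not used as pairs in the reported fit. Deviations of same-numbered arrays correlated at -0.246, 0.122 and 0.0877. Differently numbered arrays were not compared, so these values cannot show whether the arrays were paired. Array number limits the precision.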

Additional observations from a re-analysis of the deposited data

How the results depend on the processing

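The count of members past the threshold was 0 in each direction under all 15 alternatives. The count over all genes, 562, was 972 without the bottom tertile of genes by mean signal, 1083 with a variance trend, 3328 with array weights, 60 with every probe set tested, 217 with the replicate block, 343 without control replicate 3 and knockdown replicate 1 together, and 44 to 535 without 1 array. Of the other tight junction genes, 9 passed with array weights, 0 with the replicate block, 0 without both arrays, and 0 in each fit without 1 array. Of the polarity genes, 2 passed without the bottom tertile, 2 with a variance trend and 4 with array weights. Of the upstream regulators, 1 passed after quantile normalization, 1 after median centring, 5 with array weights, 0 with the replicate block, 0 without both arrays, and 0 to 2 without 1 array. The replicate block changed no member's call, and USP53 (adjusted p = 0.0821), ESRP2 (0.104) and ELF3 (0.104) lost theirs under it (limma). CGN was at -0.024 after quantile normalization and -0.032 without both arrays, and MARVELD2 was at 0.018 without both. Without 1 array, TJP1 ranged from -0.0096 to 0.058, TJP3 from -0.023 to 0.18, CGN from -0.0044 to 0.10, MARVELD2 from -0.13 to 0.029, MARVELD3 from -0.013 to 0.21, CRB3 from -0.043 to 0.14, LINC02912 from -0.046 to 0.17, CD70 from -0.022 to 0.21 and STOML3 from -0.012 to 0.17. The cause of these changes was not tested. The filter on low signal left out CGN and MARVELD3, so those have no value there.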
